A study of Mus musculus with 10 samples.

Results

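Motile cilia are beating hairs of airway, ependymal and oviduct cells, and sperm tails are built on the same plan. Their core, the axoneme, is a ring of microtubule doublets around a central pair. Outer and inner dynein arms on the doublets do the sliding, radial spokes and the central apparatus control it, and tektins run along the doublet walls. The ileum is the end of the small bowel, and its lining carries microvilli and is not known for motile cilia. The genes described here were chosen by name: all non-control probes on the array whose gene name, in the newer annotation, is that of an axonemal dynein heavy or intermediate chain, a tektin or a radial spoke protein, or is one of a short list of axoneme, ciliary cytoskeleton and RFX factor genes (Ccdc39, Ccdc40, Ccdc151, Spag6, Spag16, Spag17, Hydin, Mns1, Rfx2 and Rfx3). They came to 31 of 27845 gene names or identifiers and 64 of 41174 probes; Ccdc151 was not found under that name. The measured value in the choice is the number of probes well above background, which is given as a description with no test.

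RNA of ileum from C57BL/6 mice, 6 to 8 weeks old, was measured on 10 one-colour Agilent arrays in 5 groups of 2. TetON-Sox2 mice carry a Sox2 transgene that doxycycline (DOX) turns on through the activator rtTA. They were left untreated (Sox2 -DOX) or were given DOX (Sox2 +DOX). The other groups, all given DOX, were rtTA controls with no TetOP-Sox2 transgene (rtTA +DOX), TetON-Oct4 mice (Oct4 +DOX) and mice with the TetON-Sox2 and TetON-Oct4 transgenes together (Sox2xOct4 +DOX). DOX was at 2 mg/ml in drinking water with 1% sucrose for 2 days. No label names what drives rtTA. None says whether a group's arrays hold RNA of different mice, so a p-value here reflects the spread between these samples, which may be technical. The 4 TetON-Sox2 arrays lay on slide 1, rtTA +DOX and Sox2xOct4 +DOX on slide 2 and Oct4 +DOX on slide 3. Sox2 +DOX against Sox2 -DOX and Sox2xOct4 +DOX against rtTA +DOX are therefore within a slide, and in every other comparison slide and group cannot be told apart. In Sox2 +DOX against Sox2 -DOX, only the first group had DOX, and sucrose is named for it alone. The parts of DOX, sucrose and Sox2 cannot be told apart there. Changes given below as with Sox2 or with Sox2 alone are from that comparison. The difference between the responses to both transgenes and to Sox2 has the same limit.

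Signals are given as the log2 of the processed intensity minus the log2 of the array's 75th percentile, which was 544.1 to 1614.5. Of all probes, 63.5 to 70.5% per array were well above background by the scanner software. Pou5f1, the gene of Oct4, was at 6.20 and 4.79 in Oct4 +DOX and 2.64 and 0.92 in Sox2xOct4 +DOX and at background on the remaining 6. The Sox2 probe was not well above background on any array, so it does not check the Sox2 labels. Sex-linked genes differed between the 2 Oct4 +DOX arrays, which therefore hold RNA of different mice, so their spread is not technical alone. They also set the arrays of slide 1 apart from those of slide 2, so mice of both sexes took part and sex and slide cannot be told apart between those slides. All 10 fixed markers of ileal enterocytes were well above background on every array, with a summed level of 7.93 to 9.90 on the log2 scale. Single markers differed more than the sum. Slc10a2 was at -0.11 and 3.81 in Sox2xOct4 +DOX and 4.72 and 4.79 in rtTA +DOX. Lct was at -3.53 and -3.16 in Sox2 -DOX and 3.21 and 5.79 in rtTA +DOX.

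Of the 31 genes, 8 gave signal on every array, 16 on some and 7 on none. The largest called rise over rtTA +DOX among the members was in mice with both transgenes, where the outer arm dynein gene Dnahc5 was at -0.55 and -3.30 against -6.26 and -8.32 in rtTA +DOX. Dnahc7c, an inner arm dynein gene, and Rshl2b, a radial spoke gene, were also called higher there. Dnahc5 and Dnahc7c entered the test only because they were well above background in that group, so their calls are given beside those of a fit with no such filter. Dnahc17, another outer arm dynein gene, fell 3.83-fold in Sox2 +DOX against Sox2 -DOX, where DOX differs too. It fell 2.58-fold with both transgenes against rtTA +DOX. Beside these, Foxj1, the transcription factor that sets off motile cilium formation in airway and brain, was at -1.44 and -2.11 with both transgenes, -6.96 and -5.94 in rtTA +DOX and at background with either transgene alone; it too was tested only through the group where it is high.

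Some probe sequences are shown first because probes of the same gene disagreed, and the findings turn on which of them gave signal. Dnahc17 was read by 3 probes of 60 bases, and 1 of them, A_52_P200286, was well above background, on all 10 arrays. The other 2 were at background on every array.

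A_52_P200286: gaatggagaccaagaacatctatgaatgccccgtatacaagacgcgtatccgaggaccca
A_51_P252054: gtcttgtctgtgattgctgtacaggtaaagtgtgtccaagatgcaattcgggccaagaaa
A_52_P3908: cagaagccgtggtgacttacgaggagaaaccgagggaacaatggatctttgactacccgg

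In build NCBI36/mm8, the build of the files, the first lies at chr11:117839426-117839485 on the minus strand, the second within chr11:117899037-117902181 and the third at chr11:117907489-117907548. Dnahc7c was read by 4 probes on 2 chromosomes. A_52_P725041 at chr1:46738023-46738082 and A_51_P275729 at chr1:46738069-46738128 overlap by 14 bases, given in capitals, and the other 2 lie on chromosome 14.

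A_52_P725041: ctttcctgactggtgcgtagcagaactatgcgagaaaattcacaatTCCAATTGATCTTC
A_51_P275729: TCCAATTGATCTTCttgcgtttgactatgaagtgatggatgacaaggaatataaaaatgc
A_51_P203340: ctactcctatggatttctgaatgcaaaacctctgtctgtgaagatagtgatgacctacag
A_52_P388686: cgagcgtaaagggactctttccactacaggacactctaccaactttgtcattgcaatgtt

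The older annotation on slide 1 calls all 4 Dnahc12. RefSeq lists Dnahc7c as an older name of both Dnah7c on chromosome 1 and Dnah12 on chromosome 14, so the name covers a pair of genes. The overlapping pair on chromosome 1 was highest on the same arrays, those with both transgenes, while A_52_P388686 on chromosome 14 was well above background on rtTA +DOX replicate 2 only, at -4.15.

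Of the 64 probes, 10 (15.6%) were well above background on all 10 arrays, against 58.1% of all probes, and 31 (48.4%) on none, against 23.6%. The number per array was 15 to 17 in Sox2 -DOX, Sox2 +DOX and Oct4 +DOX. It was 21 and 18 in rtTA +DOX and 24 and 19 in Sox2xOct4 +DOX. The share of all probes well above background was also highest on rtTA +DOX replicate 1 (70.5%) and Sox2xOct4 +DOX replicate 1 (69.5%), the arrays with 21 and 24. By gene name, 8 members had a probe well above background on every array (Dnahc2, Dnahc8, Dnahc17, Dnaic1, Mns1, Rshl2b, Tekt2 and Tekt4), 16 on some arrays and 7 on none.

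**Figure D1:**
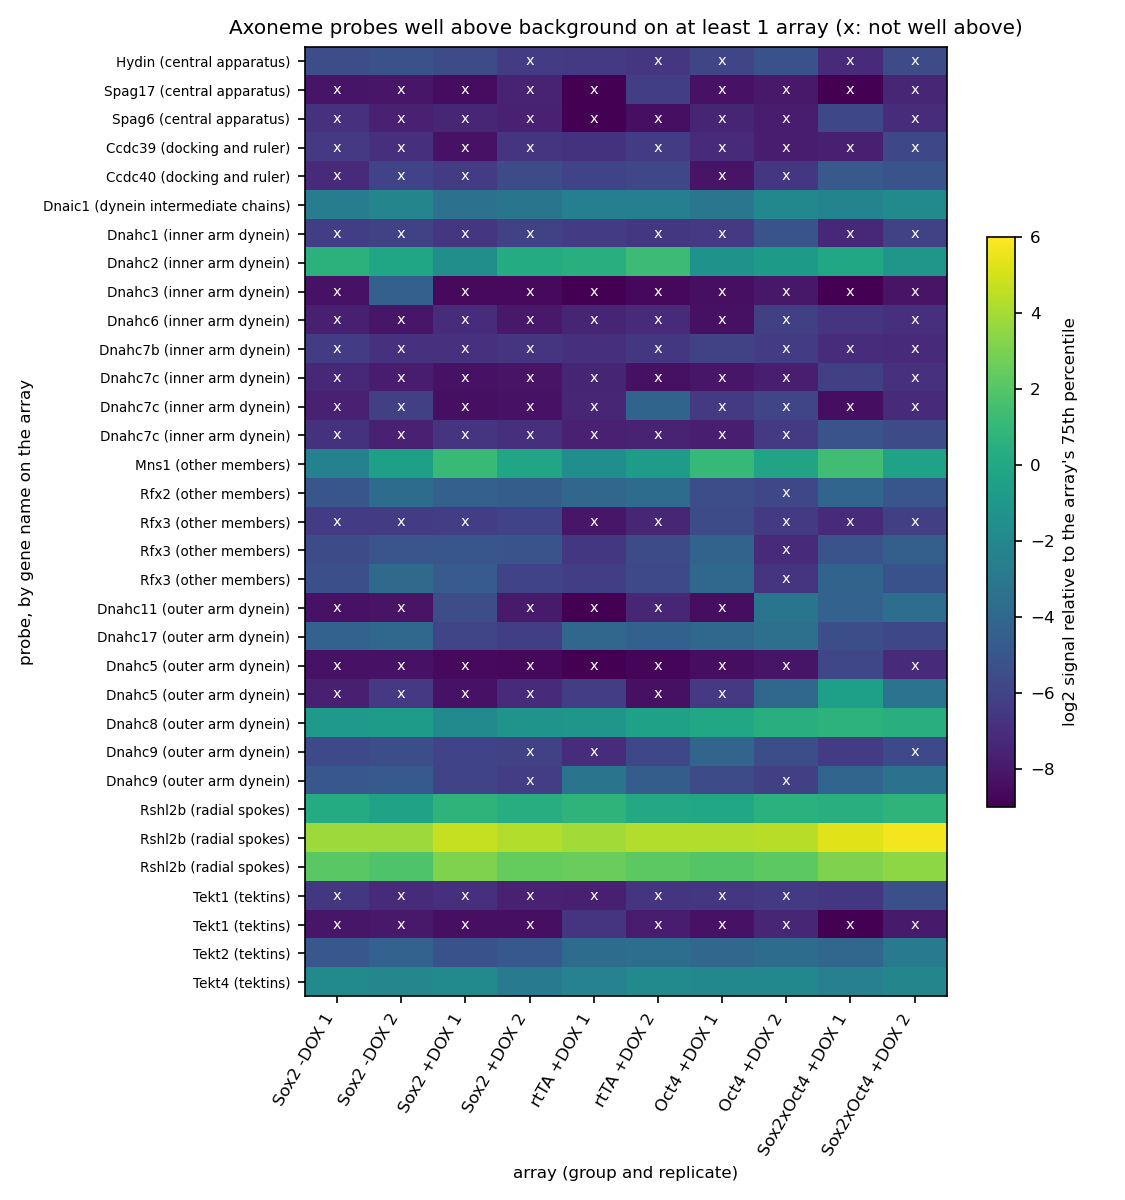
Log2 signal relative to the array's 75th percentile (colour) for the 33 axoneme probes well above background on at least 1 of 10 arrays, with an x where the probe was not; rows are probes, columns are arrays. Colour is to be read along a row only, since probes differ in brightness, and Dnahc5, Dnahc11 and Dnahc7c are marked x on most arrays outside Sox2xOct4 +DOX.

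To be tested, a gene needed a probe that was well above background on each of the 2 arrays of some group, and 17 of the 31 members passed. The other 14, which are only described by their detection, were Ccdc39, Dnahc1, Dnahc3, Dnahc6, Dnahc7, Dnahc7b, Dnahc10, Dnaic2, Rshl1, Rshl3, Spag6, Spag16, Spag17 and Tekt3. Of the 17, 4 (Dnahc5, Dnahc7c, Dnahc11 and Tekt1) passed through Sox2xOct4 +DOX alone and 1 (Hydin) through Sox2 -DOX alone, so these had to be high in that group, and counts over the 17 are a description. Genes were called at an adjusted p under 0.05, by limma with Benjamini-Hochberg adjustment over all 19052 genes tested. A fold given as "at least" is for a gene at background in the dimmer group; it sets the brighter group's mean against the lowest signal well above background on the dimmer group's arrays, or the probe's own signal where that is higher.

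The outer arm heavy chains are the motors that set beat frequency. Dnahc5 (current symbol Dnah5), the main outer arm motor of airway cilia, was at -7.71 and -6.52 in Sox2 -DOX, -8.29 and -7.17 in Sox2 +DOX, -6.26 and -8.32 in rtTA +DOX, -6.52 and -3.93 in Oct4 +DOX and -0.55 and -3.30 in Sox2xOct4 +DOX. It was well above background on both arrays with both transgenes, on Oct4 +DOX replicate 2 and on rtTA +DOX replicate 1, and on none of the TetON-Sox2 arrays. Both values with both transgenes were above the other 8. The probe passed the filter through Sox2xOct4 +DOX alone. The difference from rtTA +DOX was a log2 of 5.37 (SE 1.15, limma adjusted p = 0.035, and 0.046 with no filter on dim probes). That from Sox2 +DOX was at least 21.5-fold (limma adjusted p = 0.042, and not called with no filter, 0.051). Against Oct4 +DOX the difference was 3.30 (SE 1.15, limma adjusted p = 0.14), and it was not called. The probe lies at chr15:28416330-28416389 (mm8), and leaving out Sox2xOct4 +DOX replicate 1, either rtTA +DOX array or either Sox2 -DOX array ended the call against rtTA +DOX (limma adjusted p up to 0.16 over the alternatives). The call against Sox2 +DOX held in 3 of 10 fits that left out 1 array. The call against rtTA +DOX was also lost after normexp and quantile normalization and with only the groups compared in the fit. The 5.37 takes in rtTA +DOX replicate 2 at -8.32, which was not well above background. The other 2 Dnahc5 probes were dim but also had their highest values on the Sox2xOct4 +DOX arrays. A_51_P175027 was at -5.82 and -7.22 there, well above background on the first, and below -8 on the other 8 arrays. A_52_P548463 was at -7.08 and -6.66, not well above background.

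Dnahc11 (Dnah11), the partner of Dnahc5 near the base of airway cilia, had 1 probe. It was at -4.31 and -3.59 in Sox2xOct4 +DOX and -3.17 on Oct4 +DOX replicate 2, and at -8.43 on Oct4 +DOX replicate 1. On the TetON-Sox2 arrays it was at -8.27 and -8.23 without DOX and -5.44 and -7.89 with it, and in rtTA +DOX at -9.35 and -7.40. Oct4 +DOX thus held the highest and 1 of the lowest values. The difference between Sox2xOct4 +DOX and rtTA +DOX, where the gene was at background, was at least 6.89-fold and was not called (limma adjusted p = 0.13). The probe passed the filter through Sox2xOct4 +DOX alone, so it had to be high there. Whether it was called depended on the Oct4 +DOX arrays, which hold its highest value, being in the fit. Leaving those arrays out was chosen after seeing the data, so no call is drawn from it.

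Dnahc17 (Dnah17), an outer arm heavy chain known best from sperm tails, went the other way. It was at -4.28 and -3.98 in Sox2 -DOX, -5.89 and -6.24 in Sox2 +DOX, -4.06 and -4.36 in rtTA +DOX, -3.94 and -3.46 in Oct4 +DOX and -5.39 and -5.77 in Sox2xOct4 +DOX. All 4 arrays of mice given DOX with a Sox2 transgene were below the other 6. The change was -1.94 in Sox2 +DOX against Sox2 -DOX (SE 0.31, limma adjusted p = 0.012) and -1.37 in Sox2xOct4 +DOX against rtTA +DOX (SE 0.31, limma adjusted p = 0.042). Between slides it was -1.86 in Sox2 +DOX against rtTA +DOX (limma adjusted p = 0.013) and -1.88 in Sox2xOct4 +DOX against Oct4 +DOX (limma adjusted p = 0.019). The difference between the 2 within-slide responses was 0.57 (SE 0.44, limma adjusted p = 0.76). These values rest on 1 of the 3 Dnahc17 probes shown above. The fall with Sox2 alone was not called without Sox2 -DOX replicate 1, Sox2 -DOX replicate 2 or Sox2 +DOX replicate 1, and after normexp and quantile normalization it was -0.36. The fall with both transgenes was called in 4 of 10 other settings and in 2 of 10 fits that each left out 1 array (those without either Oct4 +DOX array), with a limma adjusted p of 0.036 to 0.25 over all of them. The fall against Oct4 +DOX was lost without Oct4 +DOX replicate 2 or Sox2xOct4 +DOX replicate 2, and that of Sox2 +DOX against rtTA +DOX without Sox2 +DOX replicate 1 or either rtTA +DOX array.

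Dnahc9 (Dnah9), the outer arm chain of the distal axoneme, was at -4.90 and -4.73 in Sox2 -DOX, -6.01 and -6.25 in Sox2 +DOX, -3.25 and -4.60 in rtTA +DOX, -5.57 and -6.17 in Oct4 +DOX and -4.08 and -3.34 in Sox2xOct4 +DOX. It was lower with either transgene alone than with both or with none. The called differences all lay between slides: -2.21 for Sox2 +DOX against rtTA +DOX (SE 0.48, limma adjusted p = 0.030), 2.42 for Sox2xOct4 +DOX against Sox2 +DOX (limma adjusted p = 0.040) and 2.16 for Sox2xOct4 +DOX against Oct4 +DOX (limma adjusted p = 0.046). These 3 calls held in 5, 3 and 2 of 10 fits that each left out 1 array. Within slides the changes were -1.31 with Sox2 (limma adjusted p = 0.13) and 0.21 with both transgenes (limma adjusted p = 0.82). A different Dnahc9 probe, A_51_P360338, had its highest value, -4.11, on Oct4 +DOX replicate 1, where the first was low, and the remaining 3 were at background on every array.

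Dnahc8 (Dnah8), an outer arm chain of sperm, was well above background on all arrays by 1 of its 3 probes. It was at -0.96 and -0.69 in Sox2 -DOX, -1.87 and -1.26 in Sox2 +DOX, -1.07 and -0.42 in rtTA +DOX, 0.02 and 0.44 in Oct4 +DOX and 0.70 and 0.46 in Sox2xOct4 +DOX. The 4 arrays with an Oct4 transgene were above the other 6. The difference of 2.15 between Sox2xOct4 +DOX and Sox2 +DOX was called (SE 0.35, limma adjusted p = 0.022), and it was lost without Sox2 +DOX replicate 1 or either Sox2xOct4 +DOX array. Within slides the changes of -0.74 with Sox2 and 1.33 with both transgenes were not (limma adjusted p = 0.21 and 0.062).

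**Figure D2:**
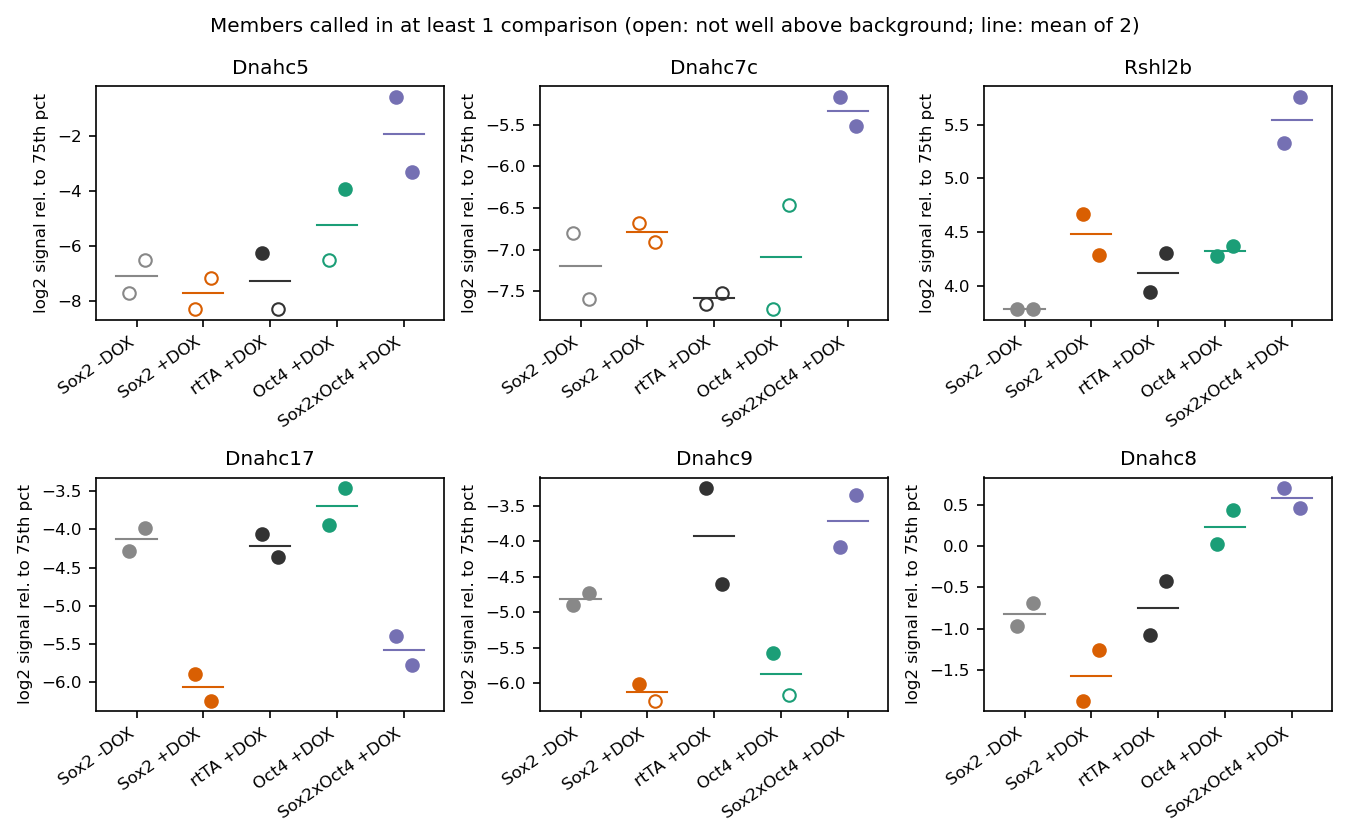
Log2 signal relative to the array's 75th percentile on each of 10 arrays, by group, for the 6 axoneme members called in at least 1 comparison; lines are means of 2 arrays and open points were not well above background. Dnahc5, Dnahc7c and Rshl2b are highest in Sox2xOct4 +DOX, and Dnahc17 is lowest in Sox2 +DOX and Sox2xOct4 +DOX.

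Inner arm heavy chains shape the bend of the beat. Of 8 inner arm genes, 2 passed the filter. The Dnahc7c probe A_52_P725041, shown above, was at -5.16 and -5.51 in Sox2xOct4 +DOX and at background on the other 8 arrays. There it was at -6.80 and -7.60 in Sox2 -DOX, -6.68 and -6.91 in Sox2 +DOX, -7.65 and -7.52 in rtTA +DOX and -7.72 and -6.46 in Oct4 +DOX. It passed the filter through that group alone. The difference from rtTA +DOX was at least 2.64-fold (log2 change 2.25, SE 0.45, limma adjusted p = 0.028, and 0.043 with no filter on dim probes). It was not called without either rtTA +DOX array or either Sox2xOct4 +DOX array, and it was 0.23 after normexp and quantile normalization. The overlapping probe A_51_P275729 was at -6.17 and -6.85 on the same 2 arrays, well above background on the first, and between -8.30 and -7.33 elsewhere. Dnahc2 (Dnah2) was bright by 1 of 2 probes and varied within groups. It was at 0.61 and -0.16 in Sox2 -DOX, -1.59 and 0.24 in Sox2 +DOX, 0.43 and 1.28 in rtTA +DOX, -1.27 and -0.81 in Oct4 +DOX and -0.01 and -1.05 in Sox2xOct4 +DOX, with no change called. Single arrays gave signal for other inner arm genes, such as Dnahc3 at -4.42 on Sox2 -DOX replicate 2 only.

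Dnaic1 (current symbol Dnai1), an intermediate chain that holds the outer arm together, was at -2.66 and -2.15 in Sox2 -DOX, -3.34 and -3.15 in Sox2 +DOX, -2.53 and -2.50 in rtTA +DOX, -3.09 and -2.01 in Oct4 +DOX and -2.21 and -1.88 in Sox2xOct4 +DOX. The values with Sox2 alone lay below the other 8. The change of -0.84 against Sox2 -DOX was not called (SE 0.39, limma adjusted p = 0.20). Dnaic2, the other intermediate chain, was at background on all arrays. Ccdc40, which with Ccdc39 forms the ruler that spaces the arms, was highest in Sox2xOct4 +DOX at -4.83 and -5.10. It was at -6.00 and -5.80 in rtTA +DOX and -7.16 and -6.00 in Sox2 -DOX. The values were -6.41 and -5.52 in Sox2 +DOX and -8.19 and -6.59 in Oct4 +DOX. Ccdc40 was well above background on neither array of Sox2 -DOX or Oct4 +DOX and on 1 of Sox2 +DOX. No change of it was called, and the difference of at least 2.02-fold between Sox2xOct4 +DOX and Oct4 +DOX had a limma adjusted p of 0.058.

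Radial spokes carry signals from the central pair to the arms. Rshl2b was the only spoke gene with signal, and it was well above background on every array by all 3 of its probes. Its brightest probe (chr17:7817561-7817620, mm8) was at 3.78 and 3.78 in Sox2 -DOX, 4.67 and 4.29 in Sox2 +DOX, 3.94 and 4.30 in rtTA +DOX, 4.28 and 4.37 in Oct4 +DOX and 5.33 and 5.76 in Sox2xOct4 +DOX. Both values with both transgenes were above the other 8. The rise over rtTA +DOX was 2.68-fold (log2 change 1.42, SE 0.29, limma adjusted p = 0.030), and the change of 0.70 with Sox2 alone was not called (limma adjusted p = 0.17). A second probe gave 0.89 (SE 0.33, limma adjusted p = 0.16) for both transgenes against rtTA +DOX, and the third, A_51_P367563, gave 0.21 (SE 0.39, limma adjusted p = 0.79). RefSeq accessions put these probes on Rsph3a and list Rshl2b as a name of its near-identical copy Rsph3b, so the signal cannot be given to either copy. The call was lost when any 1 of the 4 arrays compared was left out, without either Sox2 -DOX array and with no filter on dim probes (0.058), over a range of limma adjusted p from 0.0054 to 0.21. Rshl1 and Rshl3, which are Rsph6a and Rsph4a, were at background throughout.

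The central apparatus was nearly silent. Hydin, needed for its bending, was at -5.47 and -5.28 in Sox2 -DOX, -5.52 and -6.32 in Sox2 +DOX, -6.47 and -6.65 in rtTA +DOX, -5.85 and -5.21 in Oct4 +DOX and -7.14 and -5.59 in Sox2xOct4 +DOX, close to background on all of them and with no change called. Spag6 was well above background on Sox2xOct4 +DOX replicate 1 only (-5.76), Spag17 on rtTA +DOX replicate 2 only (-6.20) and Spag16 on none. Tekt3 was at background on all arrays. Tekt4, a tektin with signal on every array, was at -1.89 and -2.06 in Sox2 -DOX, -1.90 and -2.75 in Sox2 +DOX, -2.33 and -1.88 in rtTA +DOX, -1.98 and -2.02 in Oct4 +DOX and -2.44 and -2.14 in Sox2xOct4 +DOX, with no change called. Tekt2 was at -4.91 and -4.31 in Sox2 -DOX, -5.22 and -4.84 in Sox2 +DOX, -3.70 and -3.60 in rtTA +DOX, -4.04 and -3.67 in Oct4 +DOX and -4.06 and -2.76 in Sox2xOct4 +DOX. The lowest 4 were those of slide 1, and no change was called. Tekt1 reached -6.56 and -5.34, well above background, in Sox2xOct4 +DOX and by the same probe was at background elsewhere, at -6.54 and -7.17 in Sox2 -DOX, -6.97 and -7.62 in Sox2 +DOX, -7.68 and -6.70 in rtTA +DOX and -6.58 and -6.47 in Oct4 +DOX. Its rise of at least 1.72-fold over rtTA +DOX was not called (limma adjusted p = 0.18).

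Mns1, a filament protein found in the axoneme, differed widely between the arrays of a group. It was at -2.41 and -0.50 in Sox2 -DOX, 1.17 and -0.20 in Sox2 +DOX, -1.54 and -0.73 in rtTA +DOX, 1.04 and -0.22 in Oct4 +DOX and 1.41 and -0.35 in Sox2xOct4 +DOX. The changes of 1.94 with Sox2 (SE 0.84, limma adjusted p = 0.18) and 1.66 with both transgenes (SE 0.84, limma adjusted p = 0.27) were not called. The summed level of 9 cycling cell markers, all well above background on all arrays, was 5.26 to 5.29 in Sox2 -DOX, 5.46 to 6.80 in Sox2 +DOX, 5.02 to 5.80 in rtTA +DOX, 5.10 to 6.08 in Oct4 +DOX and 5.49 to 6.59 in Sox2xOct4 +DOX; its part in the Mns1 values was not tested. Rfx2 and Rfx3, transcription factors that switch on ciliary genes, were well above background on 9 arrays each, all but 1 Oct4 +DOX array, at -5.82 to -3.69 and -6.69 to -3.82 over all 10, and were called in no comparison.

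Counts are set here beside the share of all 19052 genes that met the same rule. Of the 17 tested members, 1 fell and none rose in Sox2 +DOX against Sox2 -DOX, where 7.84% of all genes were called, 3.03% higher and 4.81% lower. In Sox2xOct4 +DOX against rtTA +DOX 3 rose (Dnahc5, Dnahc7c and Rshl2b) and 1 fell (Dnahc17), where 6.34% were called, 3.19% higher and 3.15% lower. Leaving out 1 array moved the first count between 0 and 1, with 0 without Sox2 -DOX replicate 1, Sox2 -DOX replicate 2 or Sox2 +DOX replicate 1. It moved the second between 0 and 5, with 0 without either rtTA +DOX array or Sox2xOct4 +DOX replicate 1 and 1 without Sox2xOct4 +DOX replicate 2 or either Sox2 -DOX array. The values were above 0 for 5 of 17 with Sox2 and for 13 of 17 with both transgenes. Their medians were -0.45 and 0.94, against -0.10 and 0.07 over all genes, and the second holds 4 genes that had to be high in that group. The groups did not overlap for 8 and 13 members, against 66.4% and 52.8% of all genes. The 13 hold Dnahc5, Dnahc7c, Dnahc11 and Tekt1, which had to be high with both transgenes to be tested. The 8 hold Hydin, which had to be high in Sox2 -DOX.

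Between slides, 2 members fell (Dnahc17 and Dnahc9) in Sox2 +DOX against rtTA +DOX, where 8.38% of all genes were called, 3.23% higher and 5.14% lower, and 10 did not overlap (63.0% of all genes). In Sox2xOct4 +DOX against Sox2 +DOX 3 rose (Dnahc5, Dnahc8 and Dnahc9), where 2.6% were called, 1.76% higher and 0.84% lower, and 11 did not overlap (46.6%). In Sox2xOct4 +DOX against Oct4 +DOX Dnahc9 rose and Dnahc17 fell, where 4.35% were called, 2.36% higher and 1.99% lower, and 9 did not overlap (47.3%). The 11 hold Dnahc5, Dnahc7c, Dnahc11 and Tekt1 and the 9 hold Dnahc5 and Dnahc7c. These had to be high in Sox2xOct4 +DOX to be tested. By limma, 0 of 17 were called in Oct4 +DOX against rtTA +DOX, where 1.01% of all genes were, 0.724% higher and 0.283% lower; 5 members had an unadjusted p under 0.05 and 9 did not overlap (46.3%). In rtTA +DOX against Sox2 -DOX limma called 0 of 17 members and 0.0% of all genes; 0 members had an unadjusted p under 0.05 and 5 did not overlap (43.2%). For the difference between the responses to both transgenes and to Sox2, limma called 0 of 17 members and 0.168% of all genes, 0.147% higher and 0.021% lower. There 5 members (Dnahc5, Dnahc7c, Dnahc8, Dnaic1 and Tekt1) had an unadjusted p under 0.05, all with higher values for both transgenes. Of these, Dnahc5, Dnahc7c and Tekt1 passed the filter through Sox2xOct4 +DOX alone, so they had to be high there. The share of all genes at an unadjusted p under 0.05 was not worked out, so such counts are a description. Comparisons with a group in common share its arrays. In bulk RNA, fewer cells of a type and less RNA per cell cannot be told apart.

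**Figure D3:**
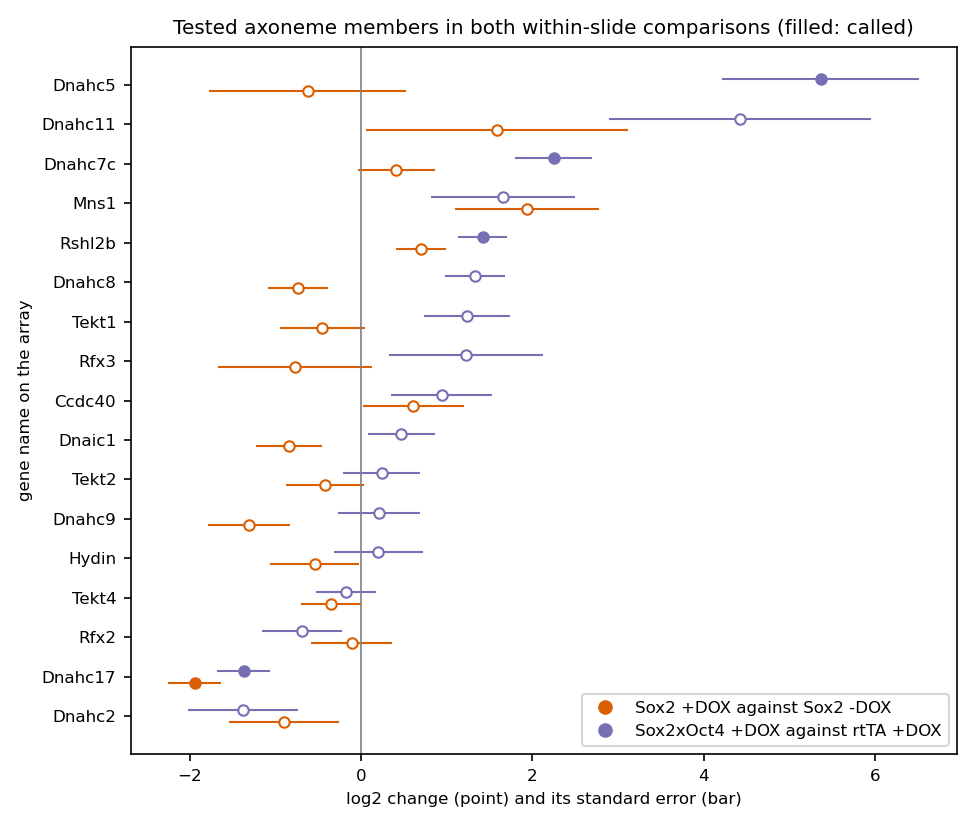
Log2 change (point) and standard error (bar) of the 17 tested axoneme members in Sox2 +DOX against Sox2 -DOX and in Sox2xOct4 +DOX against rtTA +DOX; filled points were called. Dnahc17 is called below 0 in both, and Dnahc5, Dnahc7c and Rshl2b are called above 0 with both transgenes.

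Other cilium genes were taken from 3 lists. Among regulators of multiciliation (27 genes, 25 on the array, 21 tested), 2 rose and none fell with both transgenes against rtTA +DOX, where 3.19% of all genes rose and 3.15% fell (median 0.50, all genes 0.07). The count of 2 was 0 to 3 with 1 array left out, lowest without rtTA +DOX replicate 1 (0) and Sox2xOct4 +DOX replicate 1 (1). By limma 0 were called with Sox2 alone (0 at an unadjusted p under 0.05; median 0.28, all genes -0.10). Foxj1, read by 1 probe at chr11:116146990-116147049 (mm8), was at -7.39 and -6.40 in Sox2 -DOX, -6.90 and -7.59 in Sox2 +DOX, -6.96 and -5.94 in rtTA +DOX, -8.12 and -6.78 in Oct4 +DOX and -1.44 and -2.11 in Sox2xOct4 +DOX. Outside the latter group it was well above background on rtTA +DOX replicate 2 alone, so it passed the filter only through the group where it is high. The difference from rtTA +DOX was a log2 of 4.68 (SE 0.59, limma adjusted p = 0.0062, or 0.0079 when dim probes were kept). It was not called without rtTA +DOX replicate 1 (limma adjusted p = 0.061). The difference was at least 23.8-fold from Sox2 +DOX (limma adjusted p = 0.0049, and 0.0067 with no filter) and at least 18.4-fold from Oct4 +DOX (limma adjusted p = 0.0032, and 0.0038 with no filter). The difference between the responses to both transgenes and to Sox2 was 5.03 (SE 0.83) and was not called (limma adjusted p = 0.074). Rfx4, an RFX factor of brain and testis, rose over rtTA +DOX (2.09, SE 0.36, limma adjusted p = 0.017), a call lost without rtTA +DOX replicate 1 or Sox2xOct4 +DOX replicate 1.

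Among other motile axoneme genes (80 genes, 74 on the array, 53 tested), 6 rose and 4 fell with Sox2, where 3.03% of all genes rose and 4.81% fell (median 0.31, all genes -0.10), and 3 rose and 2 fell with both transgenes, where 3.19% rose and 3.15% fell (median 0.30, all genes 0.07). With 1 array left out these counts were 1 to 6 and 0 to 7 with Sox2, and 0 to 4 and 0 to 3 with both transgenes. With Sox2 they moved most without either Sox2 -DOX array or Sox2 +DOX replicate 1, which left 1 or 2 higher and 0 lower, and without Sox2 +DOX replicate 2, which gave 7 lower. With both transgenes the count higher was 0 or 1 without either rtTA +DOX array or Sox2xOct4 +DOX replicate 1, and the count lower was 0 without either rtTA +DOX array and 1 without Sox2xOct4 +DOX replicate 1 or any array of Sox2 -DOX or Oct4 +DOX. Dnaaf1, which assembles dynein arms before they enter the cilium, fell in both, from -0.04 and -0.30 to -2.90 and -1.94 with Sox2 (4.77-fold, limma adjusted p = 0.011) and from -0.07 and 0.19 to -2.61 and -2.51 with both transgenes (6.16-fold, limma adjusted p = 0.0077). The Dnaaf1 fall with Sox2 was not called in the table normalized by the authors or with only the groups compared in the fit. Iqub, a radial spoke protein, also fell in both comparisons. Its fall was at least 7.68-fold with Sox2 (limma adjusted p = 0.016). With both transgenes its fall was 3.30 on the log2 scale (limma adjusted p = 0.038, and 0.052 with no filter on dim probes). Without Sox2 -DOX replicate 1, Sox2 -DOX replicate 2 or Sox2 +DOX replicate 1 both falls with Sox2 were lost, and without either rtTA +DOX array both falls with both transgenes were; that of Iqub was also lost without Sox2xOct4 +DOX replicate 1 or any array of Sox2 -DOX or Oct4 +DOX. Ak7, an axonemal adenylate kinase, was at -3.20 and -2.99 in Sox2 -DOX, -4.31 and -4.25 in Sox2 +DOX, -2.42 and -2.78 in rtTA +DOX, -2.40 and -1.82 in Oct4 +DOX and -0.74 and -0.11 in Sox2xOct4 +DOX. It rose 4.54-fold with both transgenes over rtTA +DOX (limma adjusted p = 0.012), while its change with Sox2 was -1.19 (limma adjusted p = 0.067). The rise was lost without either rtTA +DOX array. Fank1, known from sperm, rose to -3.12 and -3.19 with both transgenes (7.29-fold over rtTA +DOX, limma adjusted p = 0.022), a call lost without rtTA +DOX replicate 1 or either Sox2xOct4 +DOX array. Cfap410, a basal body protein, rose 7.74-fold with Sox2 (limma adjusted p = 0.0026), and the change of 1.21 with both transgenes was not called (limma adjusted p = 0.059).

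Intraflagellar transport and primary cilium genes (62 genes, 61 on the array, 59 tested) build cilia of any kind. With Sox2, 5 rose and none fell, where 3.03% of all genes rose and 4.81% fell (median 0.50, all genes -0.10), and with both transgenes 4 rose and none fell, where 3.19% rose and 3.15% fell (median 0.45, all genes 0.07). The count of 5 was 1 to 11 over the other settings and 0 to 6 with 1 array left out: 0 without either Sox2 -DOX array or Sox2 +DOX replicate 1 and 2 without either rtTA +DOX array. The count of 4 was 0 to 6 over the other settings, and 0 to 3 with 1 array left out: 0 without either rtTA +DOX array, either Sox2 -DOX array or Sox2xOct4 +DOX replicate 1, and 2 without Sox2xOct4 +DOX replicate 2 or either Oct4 +DOX array. Ttc21b and Wdr60, parts of the transport machinery, rose in both, 3.89-fold and 3.31-fold with Sox2 and 2.62-fold and 2.78-fold with both transgenes. Both rises with Sox2 were lost without Sox2 +DOX replicate 1 or either Sox2 -DOX array, and both rises with both transgenes without Sox2xOct4 +DOX replicate 1 or any array of rtTA +DOX or Sox2 -DOX. For Ttc21b the latter was also lost without either Oct4 +DOX array. The rise with both transgenes was lost in 7 of 10 other settings for Ttc21b and in 2 of 10 for Wdr60. These include the fit with no filter on dim probes (limma adjusted p = 0.072 and 0.057). The Wdr60 rise with Sox2 was lost in the table normalized by the authors and with only the groups compared in the fit.

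**Figure D4:**
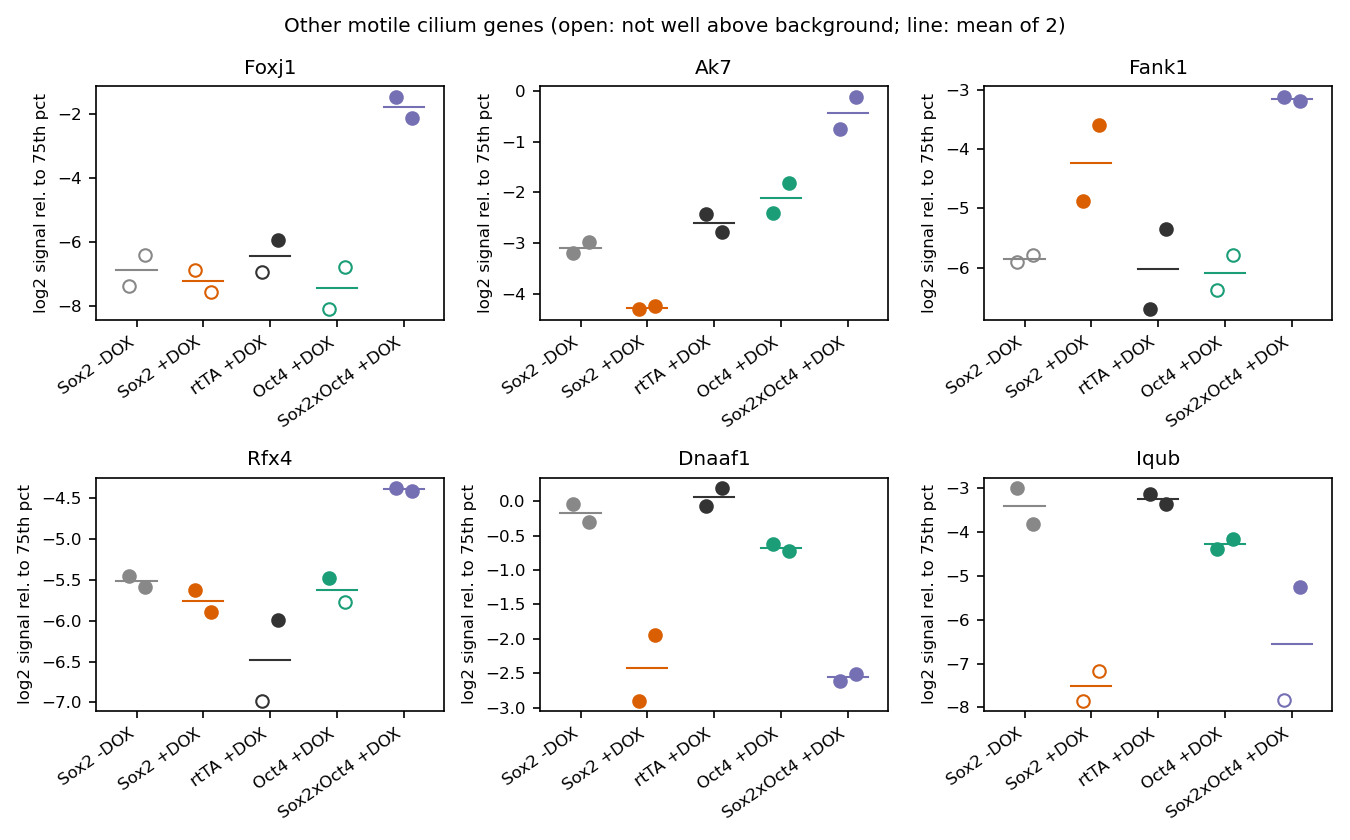
Log2 signal relative to the array's 75th percentile on each of 10 arrays, by group, for 6 further motile cilium genes; lines are means of 2 arrays and open points were not well above background. Foxj1, Ak7, Fank1 and Rfx4 are highest in Sox2xOct4 +DOX, and Dnaaf1 and Iqub are lowest in Sox2 +DOX and Sox2xOct4 +DOX.

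Of 10 fixed markers of ciliated cells, 9 were on the array and 7 were tested, Foxj1 among them. With both transgenes against rtTA +DOX, 1 of the 7, Foxj1, rose and none fell (median 0.16, all genes 0.07), where 3.19% of all genes rose. In Sox2 +DOX against Sox2 -DOX 1, Tppp3, rose and none fell (median -0.13, all genes -0.10), where 3.03% of all genes rose. Tppp3 went from -0.09 and 0.25 to 1.35 and 2.11. Between slides, Sec14l3 was called higher in Sox2 +DOX against rtTA +DOX. In Sox2xOct4 +DOX 7 were well above background on both arrays and 2, Ccdc113 and Pifo, on neither, and in rtTA +DOX 5 and 2. The summed level was 3.15 to 3.45 in Sox2xOct4 +DOX and 3.43 to 3.70 in rtTA +DOX, most of it from Tubb4b, a widely expressed tubulin at 2.96 and 2.49 against 3.42 and 2.95. Dynlrb2, a dynein light chain, was at -4.43 and -5.33 against -6.44 and -6.47, which was not called. It was at -5.16 and -4.67 in Sox2 -DOX and -5.45 and -5.26 in Sox2 +DOX. The values of Ccno, Cfap126, Sec14l3 and Tppp3 overlapped between Sox2xOct4 +DOX and rtTA +DOX. Of the 8 airway secretory and basal cell markers, 6 were well above background on both arrays in each of these groups, and the summed level was 0.55 to 0.80 against -1.73 to -0.77. The brightest in Sox2xOct4 +DOX was Scgb3a1, at 0.16 and -0.21 against -3.19 and -1.63, and it was not called. Of the 7 tested, 1, Trp63, rose and none fell (median 0.53, all genes 0.07), where 3.19% of all genes rose. Krt5, of the same list, was at -5.08 and -4.91 against -5.47 and -5.10. Trp63, a basal cell factor, was at -2.65 and -2.75 in Sox2xOct4 +DOX, -3.67 and -4.93 in Oct4 +DOX and at background on the other 6 arrays. The summed level of 6 smooth muscle markers was 5.18 to 8.32 in Sox2xOct4 +DOX and 6.74 to 7.83 in rtTA +DOX. In Sox2 +DOX against Sox2 -DOX Dnahc17, Dnaaf1 and Iqub fell, and 4.81% of all genes were called lower (median of all genes -0.10). In that comparison 8 T cell markers had a median of -2.06, with 2 called lower and 7 at an unadjusted p under 0.05. Their summed level was 1.22 to 2.41 against 4.37 to 4.75. The 10 enterocyte markers had a median of -1.26 (1 called lower, summed level 7.93 to 8.97 against 9.74 to 9.90). The 6 smooth muscle markers had one of -1.37 (0 called by limma and 1 at an unadjusted p under 0.05). Their summed level was 5.27 to 5.67 against 6.53 to 7.01. The 12 enteroendocrine markers had a median of -0.25, with 3 called lower and 1 higher. Germ cell and testis markers, 4 of 10 tested, had one of -1.0, with 0 called by limma. Their summed level was 3.02 to 5.03 against 5.33 to 5.58. Medians were -0.86 for B cell and plasma cell, -0.75 for tuft, -0.63 for enteric neuron and glia and 1.14 for cycling cell markers. With both transgenes against rtTA +DOX the T cell and enterocyte medians were both -1.09, and that of smooth muscle was -0.69 (all genes 0.07). The part of these cell types in the changes above was not tested.

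Promoters are shown for a gene that rose, a gene that fell and a gene with a match to the RFX half-site, as the 250 bases before the transcription start in RefSeq (GRCm38.p6). Windows of 300 bases, which add 50 bases after the start, were found for 30 member symbols (33 windows) and searched on both strands, with matches in capitals.

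Dnah5: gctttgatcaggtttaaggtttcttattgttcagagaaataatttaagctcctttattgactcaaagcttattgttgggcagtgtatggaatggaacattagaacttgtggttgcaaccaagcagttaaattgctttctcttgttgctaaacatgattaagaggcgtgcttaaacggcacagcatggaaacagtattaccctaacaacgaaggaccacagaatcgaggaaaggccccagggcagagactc
Dnah17: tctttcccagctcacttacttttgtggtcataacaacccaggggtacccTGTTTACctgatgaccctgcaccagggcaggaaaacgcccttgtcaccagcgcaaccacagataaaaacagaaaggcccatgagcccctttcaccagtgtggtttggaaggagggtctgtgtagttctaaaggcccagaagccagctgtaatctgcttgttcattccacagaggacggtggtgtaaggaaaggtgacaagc
Mns1: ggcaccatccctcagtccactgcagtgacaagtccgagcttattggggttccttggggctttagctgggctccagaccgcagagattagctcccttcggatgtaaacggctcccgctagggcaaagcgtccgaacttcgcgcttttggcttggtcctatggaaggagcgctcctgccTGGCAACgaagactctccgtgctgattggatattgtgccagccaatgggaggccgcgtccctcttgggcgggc

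They lie at chr15:28203516-28203765 (plus strand), chr11:118129220-118129469 (minus strand) and chr9:72438279-72438528 (plus strand). The RFX half-site, searched as GTTGCCA, was in 5 of 33 member windows (15.2%), those of Dnah10, Dnah7b, Hydin, Mns1 and Tekt1, against 4.4% of all 32851 windows. An inverted repeat, GTTGCC and then GGCAAC after 0 to 3 bases, was in none, against 0.2%. The forkhead motif TGTTTAC was in 2 (6.1%), Dnah17 and Tekt3, against 3.6%, and the Sox motif CATTGT in 4 (12.1%) against 12.6%. Of the 5 genes with the RFX half-site, Hydin, Mns1 and Tekt1 were tested and were called in no comparison, and the Dnah5 window held none of the 4. A match is a description of letters and not of binding.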

How the data were processed

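RNA of 10 ileum samples was hybridised to one-colour Agilent mouse arrays. The deposited scanner files give spot intensity values and background flags, made with Agilent Feature Extraction 9.5.3.1 (slide 1), 10.7.1.1 (slide 2) and 10.7.3.1 (slide 3), per the file headers; the submitters' processing notes name 9.1. For the TetON-Sox2 arrays a table normalized by the authors holds ratio values, deposited with steps not given in the sources used here, and served as an alternative. Processed signals were put on the log2 scale relative to each array's 75th percentile. Control spots and 45 to 65 outlier-flagged spots per array were left out. A probe was kept where a whole group had it well above background (28760 probes), and the brightest stood for its gene. A group-means model over all 10 arrays was fitted with limma 3.58.1 in R 4.3.3, with 5 residual degrees of freedom, and was tested on simulated data. Calls had an adjusted p under 0.05. With 2 arrays a group the median SE was 0.39, and the number of arrays limits the precision. Replicates correlated at 0.96 to 0.98. Genes were named as in the files, and current symbols come from RefSeq, which named 80.3% of probes. Array values are given for each member called in any comparison, well above background on all arrays, or so on both arrays of 1 group and neither of another; from each other list up to 4 genes with the smallest p in each within-slide comparison may be named. Members and lists were chosen with earlier results of these data known.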

Additional observations from a re-analysis of the deposited data

Results flagged for a closer look

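Ak7, an axonemal adenylate kinase outside the member list, differed between the response to both transgenes and the response to Sox2 alone: the first was 3.37 higher on the log2 scale (SE 0.47, limma adjusted p = 0.049). Ak7 rose by 2.18 with both transgenes over rtTA +DOX, and its change in Sox2 +DOX against Sox2 -DOX was -1.19, and both arrays moved that way in each. The difference kept its direction in every setting run, but it was past the threshold in 2 of 10 other settings and in 1 of 10 fits that each left out 1 array (limma adjusted p from 0.037 to 0.22). Every group had 2 arrays, too few to look for an outlying array.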

How the results depend on the processing

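The count of members called in Sox2 +DOX against Sox2 -DOX was 1 in all 11 other settings, though normexp and quantile normalization called Rshl2b in place of Dnahc17; leaving out 1 array gave 0 to 1. For Sox2xOct4 +DOX against rtTA +DOX the main count of 4 was 2 after normexp and quantile normalization, 2 after quantile normalization and 2 with only the groups compared in the fit, and 0 to 5 with 1 array left out. For Sox2 +DOX against rtTA +DOX the count of 2 was 0 after normexp and quantile normalization and 1 with only the groups compared, and 0 to 3 with 1 array left out. For Sox2xOct4 +DOX against Sox2 +DOX the count of 3 was 1 after quantile normalization, 1 with no filter on dim probes and 0 with only the groups compared, and 0 to 2 with 1 array left out. For Sox2xOct4 +DOX against Oct4 +DOX the count of 2 was 1 after normexp and quantile normalization, 1 with no filter and 0 with only the groups compared, and 0 to 2 with 1 array left out. The cause was not tested, except that a fit of only the groups compared has fewer arrays. The other 3 counts were 0 in every setting run, and no named result reversed. With the replicate number as a block the counts were 1 in Sox2 +DOX against Sox2 -DOX, 4 in Sox2xOct4 +DOX against rtTA +DOX and 2 in each of the other 3 comparisons with calls. The genes were not all the same: under the block Dnahc8 was called in place of Dnahc17 in Sox2xOct4 +DOX against rtTA +DOX and Ccdc40 in place of Dnahc9 in Sox2xOct4 +DOX against Oct4 +DOX, and Dnahc5 was lost in Sox2xOct4 +DOX against Sox2 +DOX. The count of transport and primary cilium genes that rose with both transgenes was 2 under the block. Deviations of same-numbered arrays correlated at -0.13 to 0.27 over 10 pairs of groups. A weak correlation cannot exclude pairing, so whether the numbers pair the arrays is not settled. Leaving the Oct4 +DOX arrays out of the fit was chosen after seeing the data. Signals near background limit most members: normexp and quantile normalization moved the Dnahc5 rise over rtTA +DOX from 5.37 to 1.63 and that of Foxj1 from 4.68 to 1.57.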
